A study of Mus musculus with 18 samples.

Results

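The 10 genes described here are markers of injured kidney tubule: Havcr1, Lcn2, Cd44, Spp1, Clu, Vcam1, Krt20, Sox9, Timp1 and Krt8. They were chosen by name from the gene table, and each matched 1 of its 19545 entries. Kidney RNA of ICR mice aged 10 weeks was sequenced in 18 libraries, 3 for each of 6 groups. The control group was labelled control, and a second group without STZ was given AOS at 10 mg/kg. The third group was given STZ (streptozotocin, a toxin of insulin-producing beta cells used to model diabetes) and the fourth STZ with AOS at 10 mg/kg, written here STZ+AOS. The remaining groups were given STZ and FMT (transfer of gut microbiota). Their labels are STZ+AOS10mg/kg-FMT, written here STZ+AOS-FMT, and STZ+control-FMT. The series asked what FMT does in kidneys damaged by STZ. The labels do not spell out AOS and do not say whether the 3 libraries of a group came from 3 mice, so p-values measure the spread between these libraries. Libraries are named by group and replicate number, as in STZ+AOS 1.

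Injured tubule cells lose part of the transport program of the mature epithelium and switch on surface receptors, secreted proteins, matrix-binding molecules and simple-epithelial keratins. Havcr1 (kidney injury molecule KIM-1) and Lcn2 (NGAL) are used as injury markers in tissue and urine. Most of the set is low in healthy proximal tubule, whereas Spp1, Clu and Krt8 are also made by undamaged distal nephron and collecting duct. Because whole kidney was sequenced, fewer cells of a type and less RNA per cell cannot be told apart.

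Levels are read as FPKM, fragments per transcript length and sequencing depth, a unit inferred from the values, so levels of different genes can be compared per length. Kidney markers were present in every library: Lrp2 (megalin, of the proximal tubule) was at 76.28 to 161.41 FPKM and Umod (uromodulin, of the thick ascending limb) at 306.69 to 1031.72 FPKM. The number of genes at 1 FPKM or more ran from 11407 to 12607. The FPKM that a single read adds to a gene was estimated from 115 to 1039 genes per library and differed by at most 1.08 times. That estimate used only values close to the lowest of each gene, so it cannot show a large difference in depth. Markers of adrenal cortex stood out in 3 libraries: Cyp11b1, the last enzyme of corticosterone synthesis, was at 117.85 FPKM in control 3, 316.12 in STZ+AOS 1 and 276 in STZ+AOS 3. It was at 14.33 FPKM in STZ+AOS 2, at 0, 5.13 and 5.13 in STZ, and at 0.15 or less in every other library. Kap, an androgen-dependent transcript of the proximal tubule, was at 144521.42 to 155153.84 FPKM in AOS, control 1, control 2 and STZ 1, and lower in all other libraries. It was lowest in STZ+AOS 1, at 6173.67 FPKM, with 35780.93 and 41198.37 in STZ+AOS 2 and 3, 15797.92 in control 3 and 14614.73 in STZ 3, 63552.33 in STZ 2 and 54473.60 to 85880.22 in the FMT libraries. The interaction and the comparisons of STZ+AOS with AOS, STZ+AOS-FMT and STZ are also given without the 3 libraries with Cyp11b1 above 100 FPKM. The ranking of groups is given with all libraries. The libraries low in Kap were not left out as a set.

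To show where transcription of the leading members starts, the 250 bases before the RefSeq start (GRCm38.p6, the patch release of mm10) are printed 5′ to 3′ on the gene's strand for the 3 members with the greatest excess of the highest library over the median and for Cd44, whose pattern differed. Capitals mark a match to a searched motif. The stretches are chr11:46739973-46740222 on the plus strand for Havcr1, the first of its 3 RefSeq starts, chr2:32387740-32387989 on the minus strand for Lcn2, chrX:20869916-20870165 on the plus strand for Timp1 and chr2:102901666-102901915 on the minus strand for Cd44.
Havcr1: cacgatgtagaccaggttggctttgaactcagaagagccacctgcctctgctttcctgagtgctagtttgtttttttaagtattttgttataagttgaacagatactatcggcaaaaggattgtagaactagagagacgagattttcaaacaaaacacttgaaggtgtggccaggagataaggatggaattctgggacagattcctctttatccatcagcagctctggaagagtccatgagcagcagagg
Lcn2: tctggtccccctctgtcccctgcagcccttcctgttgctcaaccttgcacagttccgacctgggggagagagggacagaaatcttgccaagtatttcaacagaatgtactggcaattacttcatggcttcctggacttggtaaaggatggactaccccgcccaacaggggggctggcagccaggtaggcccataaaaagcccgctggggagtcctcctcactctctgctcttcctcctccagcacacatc
Timp1: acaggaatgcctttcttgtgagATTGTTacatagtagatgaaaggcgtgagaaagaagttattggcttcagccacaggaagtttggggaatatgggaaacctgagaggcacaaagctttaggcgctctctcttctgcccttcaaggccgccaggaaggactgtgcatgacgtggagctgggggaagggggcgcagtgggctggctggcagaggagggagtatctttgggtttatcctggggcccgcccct
Cd44: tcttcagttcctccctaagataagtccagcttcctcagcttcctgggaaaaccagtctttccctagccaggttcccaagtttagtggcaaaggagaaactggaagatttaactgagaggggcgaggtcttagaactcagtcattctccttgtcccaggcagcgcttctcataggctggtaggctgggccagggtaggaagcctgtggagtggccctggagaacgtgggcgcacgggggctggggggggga

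RefSeq windows of 300 bases, 250 before the start and 50 past it, were given for 7 of the 10 members, with 10 windows in all. Clu, Vcam1 and Sox9 had none. The motifs were searched on both strands. The AP-1 motif TGANTCA matched in 1 of the 7 members, at 11 to 17 bases past the third start of Havcr1, and in 8.97% of all 27025 genes with a window. The SOX motif AACAAT matched in 1 of the 7, at 228 to 223 bases before the Timp1 start (in capitals above, read from the other strand), and in 12.2% of all genes. An NF-kB consensus, the STAT3 motif TTCNNNGAA and the p53 half-site matched in 0 of the 7 members, against 5.48%, 9.55% and 9.55% of all genes. These counts describe letters in the windows and say nothing of binding.

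The group given both STZ and AOS had the highest mean of all 10 members, and its levels spread widely between its 3 libraries. STZ+AOS 1 was the highest of the 18 libraries for 9 of the 10 members, while 34.1% of all genes past the filter (a level of 1 FPKM in 3 or more libraries) were highest there. Cd44 was highest in STZ+AOS 3, where 15.6% of all genes were. The AOS group had the lowest mean for 9 members, and Sox9 was lowest in STZ+AOS-FMT. By single library, the lowest value was in AOS only for Cd44, Spp1 and Timp1, and in control or STZ for the other members. Control 3 was the highest control library for every member and raised the control means. For 9 members the range of STZ+AOS overlapped that of the group next to it in rank, and Sox9 was the exception.

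**Figure D1:**
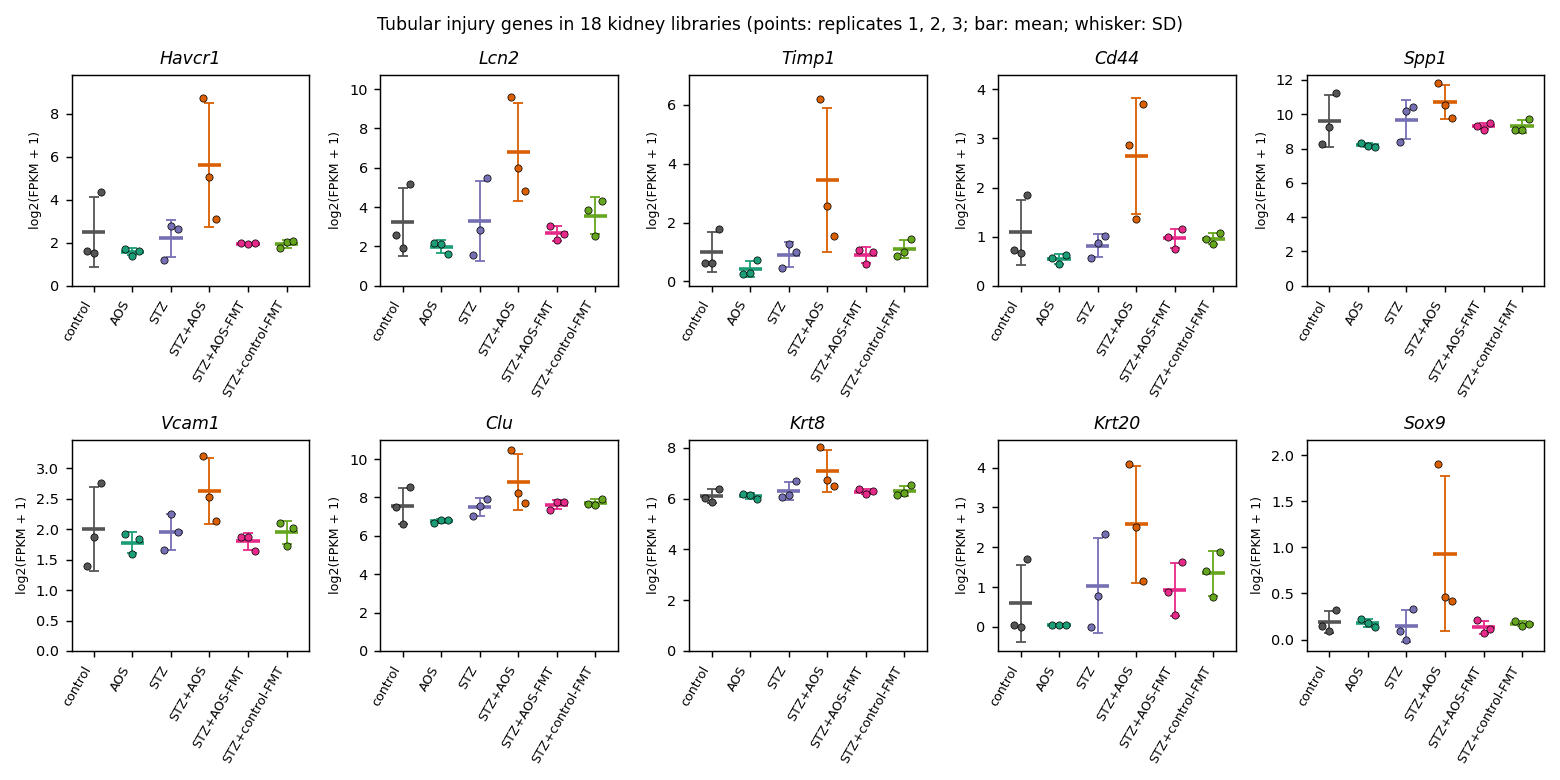
Level of each member in every library, log2(FPKM + 1), by group, with the mean and SD of 3 libraries; the AOS points lie close together and the STZ+AOS points reach the top of each panel, with Sox9 up to 2.73 FPKM and Havcr1 up to 423.13 FPKM.

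Havcr1 (ENSMUSG00000040405.13, chr11:46735080-46779578, plus strand, mm10) encodes a receptor through which injured tubule cells take up dying cells. Its level was 2.03, 1.85 and 19.36 FPKM in control and 2.27, 1.63 and 2.06 in AOS. In STZ it was 1.30, 5.87 and 5.16 FPKM, and in STZ+AOS 423.13, 31.98 and 7.45. The STZ+AOS libraries lay above every STZ, AOS and FMT library, but control 3 lay above STZ+AOS 3. With AOS-FMT the level was 2.91, 2.77 and 2.91 FPKM, and with control-FMT 2.32, 3.05 and 3.27. These 6 libraries were tightly grouped, at 2.86 ± 0.0808 and 2.88 ± 0.497 FPKM (mean ± SD, n = 3 each), against 154.2 ± 233.2 FPKM in STZ+AOS. On the log2(FPKM + 1) scale, which understates the change of low genes, Havcr1 rose by 4.04 ± 1.03 (SE) in STZ+AOS against AOS (limma, Benjamini-Hochberg adjusted p = 0.00969) and by 3.67 ± 1.03 against STZ+AOS-FMT (adjusted p = 0.0344). Against STZ it was 3.42 ± 1.03 higher, with an adjusted p of 0.0606 by the same limma test, which misses the threshold of 0.05.

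Among the secreted members, Lcn2 (ENSMUSG00000026822.14, chr2:32384633-32388252, minus strand) encodes a lipocalin that binds iron-carrying siderophores. It stood at 4.99, 2.72 and 35.12 FPKM in control, 3.57, 3.41 and 2.06 in AOS, and 1.90, 6.19 and 44.25 in STZ. STZ+AOS had 772.41, 62.81 and 27.19 FPKM, STZ+AOS-FMT 7.34, 3.93 and 5.29, and STZ+control-FMT 13.54, 4.74 and 19.06. The STZ+AOS range was clear of AOS and of both FMT groups, and overlapped control and STZ through control 3 and STZ 3. Lcn2 rose by 4.82 ± 1.14 against AOS (limma, adjusted p = 0.00814) and by 4.13 ± 1.14 against STZ+AOS-FMT (adjusted p = 0.0331). Against STZ the log2 difference was 3.51 ± 1.14 (limma, adjusted p = 0.0696).

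Timp1 (ENSMUSG00000001131.11, chrX:20870166-20874735, plus strand) encodes an inhibitor of matrix metalloproteinases. Its levels were 0.53, 0.55 and 2.47 FPKM in control, 0.19, 0.22 and 0.65 in AOS, and 0.36, 1.40 and 1.01 in STZ. STZ+AOS had 72.33, 4.91 and 1.92 FPKM, STZ+AOS-FMT 1.11, 0.51 and 1.01, and STZ+control-FMT 0.80, 1.00 and 1.74. All 3 STZ+AOS libraries lay above the STZ, AOS and FMT libraries, and control 3 lay above STZ+AOS 3. The rise was 3.02 ± 0.79 on the log2 scale against AOS (limma, adjusted p = 0.0108) and 2.54 ± 0.79 against STZ+AOS-FMT (adjusted p = 0.0458), while the difference from STZ was 2.53 ± 0.79 (adjusted p = 0.0647).

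Spp1 (osteopontin, ENSMUSG00000029304.14, chr5:104435118-104441050, plus strand) encodes a secreted phosphoprotein that binds integrins and CD44. It was the most abundant member in every group by mean, at 306.80, 604.04 and 2434.02 FPKM in control, 325.12, 284.84 and 276.51 in AOS, and 326.79, 1180.24 and 1386.81 in STZ. STZ+AOS had 3564.32, 1503.38 and 886.47 FPKM, STZ+AOS-FMT 642.82, 546.85 and 711.44, and STZ+control-FMT 542.61, 536.00 and 838.84. Control 3 and STZ 2 and 3 reached into the STZ+AOS range, whereas the AOS and FMT libraries did not. Spp1 rose by 2.51 ± 0.66 against AOS (limma, adjusted p = 0.0112). The log2 difference was 1.41 ± 0.66 from STZ+AOS-FMT (adjusted p = 0.139) and 1.05 ± 0.66 from STZ (adjusted p = 0.268), neither past the threshold.

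Clu (clusterin, ENSMUSG00000022037.15, chr14:65968483-65981547, plus strand) encodes a secreted chaperone. Its levels were 178.79, 98.31 and 372.34 FPKM in control, 99.69, 113.84 and 113.79 in AOS, and 129.74, 189.50 and 241.28 in STZ. STZ+AOS had 1417.17, 304.01 and 209.89 FPKM, STZ+AOS-FMT 163.70, 214.73 and 217.97, and STZ+control-FMT 200.73, 190.95 and 245.19. STZ+AOS 3 lay among the FMT and STZ libraries, so that the groups overlapped; AOS was lower than every STZ+AOS library. Clu rose by 2.03 ± 0.55 against AOS (limma, adjusted p = 0.0122), with 1.18 ± 0.55 from STZ+AOS-FMT (adjusted p = 0.137) and 1.31 ± 0.55 from STZ (adjusted p = 0.120).

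Of the adhesion molecules, Cd44 (ENSMUSG00000005087.17, chr2:102811141-102901665, minus strand) encodes the receptor for hyaluronan. It was at 0.66, 0.59 and 2.61 FPKM in control, 0.48, 0.35 and 0.54 in AOS, and 0.48, 0.82 and 1.02 in STZ. STZ+AOS had 6.31, 1.58 and 12.03 FPKM, STZ+AOS-FMT 0.98, 0.68 and 1.22, and STZ+control-FMT 0.94, 0.79 and 1.09. The 3 STZ+AOS libraries were above every library of the other groups except control 3. Cd44 was the only member to pass in all 3 comparisons with STZ+AOS: it rose by 2.11 ± 0.43 against AOS (limma, adjusted p = 0.00629), 1.69 ± 0.43 against STZ+AOS-FMT (adjusted p = 0.0275) and 1.83 ± 0.43 against STZ (adjusted p = 0.0420). Its highest libraries, STZ+AOS 3, STZ+AOS 1 and control 3, were those with Cyp11b1 above 100 FPKM. Leaving out these 3 libraries, a choice made after seeing the data, leaves STZ+AOS with a single library. The difference of Cd44 was then 0.55 from STZ and 0.83 from AOS. Whether adrenal RNA contributes to Cd44 was not tested.

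Vcam1 (ENSMUSG00000027962.14, chr3:116109949-116129688, minus strand) encodes an adhesion molecule of activated endothelium and of injured proximal tubule that binds leukocyte integrins. It was at 1.62, 2.65 and 5.74 FPKM in control, 2.79, 2.00 and 2.56 in AOS, and 2.16, 3.76 and 2.89 in STZ. STZ+AOS had 8.23, 4.77 and 3.39 FPKM, STZ+AOS-FMT 2.68, 2.67 and 2.12, and STZ+control-FMT 3.27, 2.32 and 3.05. The STZ+AOS libraries were above all AOS and FMT libraries and overlapped STZ and control. Vcam1 rose by 0.84 ± 0.30 against AOS (limma, adjusted p = 0.0340), but the call was lost with median-of-ratios scaling (adjusted p = 0.0737) and with quantile normalization (adjusted p = 0.219). Against STZ+AOS-FMT it was 0.82 ± 0.30 higher (adjusted p = 0.0706) and against STZ 0.67 ± 0.30 (adjusted p = 0.139).

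The keratins form intermediate filaments of epithelial cells. Krt8 (ENSMUSG00000049382.10, chr15:101996698-102004482, minus strand) had the smallest coefficient of variation among the members in control (19.5%) and in STZ (25.8%). It was at 64.19, 57.31 and 82.96 FPKM in control, 71.82, 69.83 and 62.32 in AOS, and 65.13, 68.88 and 102.00 in STZ. STZ+AOS had 257.15, 104.52 and 89.87 FPKM, STZ+AOS-FMT 81.26, 71.03 and 77.23, and STZ+control-FMT 70.42, 73.23 and 92.07. Only STZ 3 and STZ+control-FMT 3 reached the lowest STZ+AOS library. Krt8 rose by 0.97 ± 0.29 against AOS (limma, adjusted p = 0.0177), with 0.81 ± 0.29 from STZ+AOS-FMT (adjusted p = 0.0703) and 0.79 ± 0.29 from STZ (adjusted p = 0.0910).

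Krt20 (ENSMUSG00000035775.2, chr11:99428403-99438150, minus strand), a keratin of gut lining and urothelium that injured tubule also makes, was close to 0 in the AOS group and in 3 other libraries. It was at 0.04, 0 and 2.27 FPKM in control, 0.04 in each AOS library, and 0, 0.72 and 4.04 in STZ. STZ+AOS had 15.92, 4.68 and 1.21 FPKM, STZ+AOS-FMT 0.82, 0.24 and 2.10, and STZ+control-FMT 1.64, 0.69 and 2.69. STZ+AOS 3 lay below STZ 3 and among the FMT libraries, so only AOS was clear of the STZ+AOS range. Krt20 rose by 2.52 ± 0.70 against AOS (limma, adjusted p = 0.0129), with 1.64 ± 0.70 from STZ+AOS-FMT (adjusted p = 0.107) and 1.54 ± 0.70 from STZ (adjusted p = 0.140). The summed level of 6 urothelial markers, none of them at 0 throughout a group, was 20.47, 136.1 and 44.25 FPKM in STZ+AOS, 2.38 to 6.22 in AOS and 2.38, 6.64 and 89.13 in STZ. The FMT libraries had 8.88 to 94.68 FPKM of these markers, and the control libraries 3.77 to 16.55. Krt20 was highest in STZ+AOS 1 and the urothelial sum in STZ+AOS 2. Within STZ and within each FMT group, the 3 libraries had the same order in Krt20 and in the urothelial sum. Within control and within STZ+AOS they did not. The part of urothelium in the Krt20 values was not tested.

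Sox9 (ENSMUSG00000000567.5, chr11:112782224-112787760, plus strand) encodes a transcription factor of nephron development and tubule repair. It was the only member that did not pass the filter, reaching 1 FPKM in 1 library. Its levels were 0.11, 0.07 and 0.25 FPKM in control, 0.17, 0.13 and 0.10 in AOS, and 0.07, 0 and 0.26 in STZ. STZ+AOS had 2.73, 0.38 and 0.34 FPKM, STZ+AOS-FMT 0.16, 0.05 and 0.08, and STZ+control-FMT 0.15, 0.11 and 0.12. All 3 STZ+AOS libraries were above every other library, STZ+AOS 2 and 3 by little.

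The members moved together across libraries. Over the 45 pairs of members, Pearson's r of log2(FPKM + 1) across the 18 libraries ran from 0.600 to 0.969, with a median of 0.852, and without STZ+AOS 1 from 0.415 to 0.917, with a median of 0.722. With group means removed the median was 0.788 and the lowest 0.131. Cd44 had the weakest relation: its deviations from group means had an r of 0.131 to 0.328 with the other 9 members. The libraries share their depth and composition, so these values only describe. Every member was above all AOS libraries in control 3, STZ 3 and each STZ+AOS library, in which 69.0%, 62.9%, 72.2%, 69.6% and 58.5% of all filtered genes were. In control 1, control 2 and STZ 1, only 3, 2 and 2 members were, with 28.8%, 32.2% and 20.9% of all genes. The libraries of control and of STZ therefore fell apart within each group, in the members and over all genes alike. Control 3 and STZ 3 were high, and control 1, control 2 and STZ 1 low. STZ 2 lay between them, with 8 members and 55.0% of all genes above AOS. The count in the FMT libraries ran from 6 members in STZ+AOS-FMT 2, with 42.0% of genes, to 9 in STZ+control-FMT 3, with 59.8%.

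**Figure D2:**
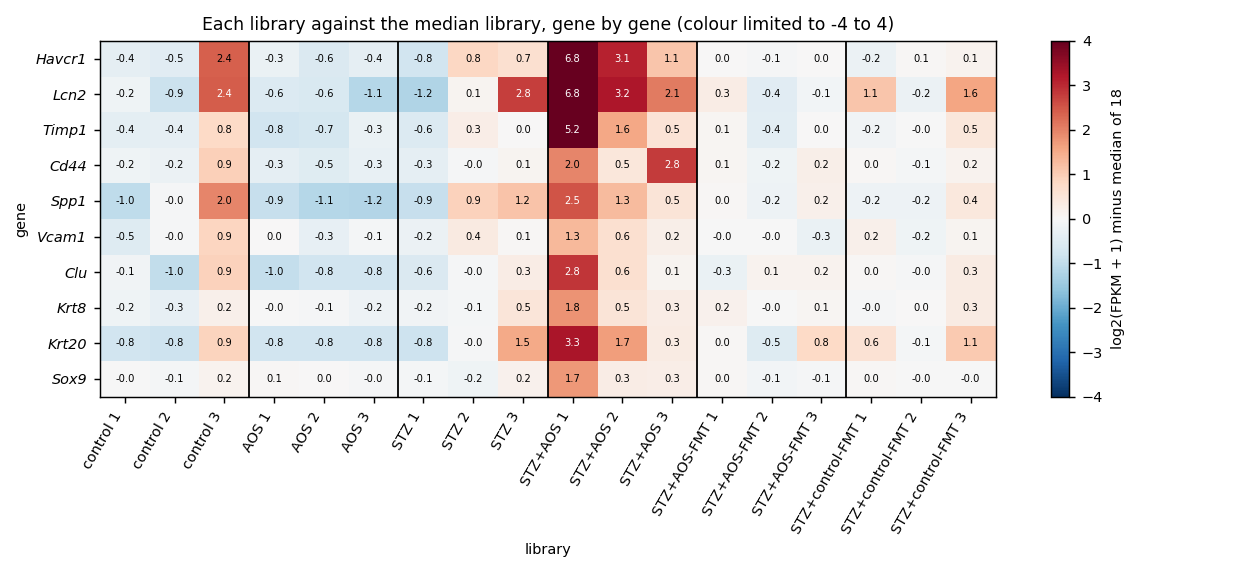
Difference of each member in each library from the median of its 18 libraries, on the log2(FPKM + 1) scale, with members in rows and libraries in columns; STZ+AOS 1 holds the highest values for 9 of the 10 members, and control 3 and STZ 3 are above the median for all 10.

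Against AOS alone, the STZ+AOS kidneys were higher in all 9 members tested, where 39.3% of all 12682 genes tested passed in that direction. The ranges of the groups did not overlap for 10 of 10 members, the untested Sox9 included, and for 49.7% of all genes tested. The median log2 difference of the 9 members was 2.51, against 0.29 over all genes. Without STZ+AOS 1, Havcr1, Lcn2, Cd44, Spp1, Clu and Timp1 still passed, and Vcam1 (0.55, adjusted p = 0.159), Krt20 (1.77, adjusted p = 0.0595) and Krt8 (0.51, adjusted p = 0.0564) did not in limma. Leaving out the 3 libraries with Cyp11b1 above 100 FPKM leaves STZ+AOS with 1 library. The differences were then 3.47 for Havcr1, 0.83 for Cd44, 1.47 for Clu and 2.14 for Timp1. Lcn2 was at 4.01, Spp1 at 2.35 and Krt20 at 2.45, with Vcam1 at 0.75 and Krt8 at 0.62. With Cyp11b1 as a covariate, also chosen after seeing the data, 0 passed in any comparison with STZ+AOS. Cyp11b1 itself was 6.66 ± 1.48 higher in STZ+AOS than in AOS, so this fit cannot tell the covariate from the group. Among the alternatives run for these comparisons, the lowest count over all genes was 0 in each.

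Against STZ+AOS-FMT, 4 of 9 members passed as higher, Havcr1, Lcn2, Cd44 and Timp1, where 11.1% of all genes did. The groups did not overlap for 8 of 10 members, with Clu and Krt20 the exceptions, and for 33.2% of all genes. The median difference of the members was 1.64 on the log2 scale, against 0.17 over all genes. None of the 4 passed without STZ+AOS 1, where Havcr1 differed by 2.11 (limma, adjusted p = 0.109), Lcn2 by 2.73 (adjusted p = 0.124), Cd44 by 1.57 (adjusted p = 0.0893) and Timp1 by 1.16 (adjusted p = 0.0977). The count was also 0 without any single STZ+AOS-FMT library, and with only these 2 groups in the fit, whereas 8 members passed with array weights. Over all genes, the count under the alternatives ran from 0 to 3402, against 1919 in the main fit. Leaving out the 3 libraries with Cyp11b1 above 100 FPKM leaves STZ+AOS with 1 library. Havcr1 then differed by 3.09, Lcn2 by 3.32, Cd44 by 0.41 and Timp1 by 1.67.

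Against STZ alone, Cd44 was the 1 member of 9 that passed, where 3.44% of all genes passed as higher. The groups did not overlap for Havcr1, Cd44, Timp1 and Sox9, 4 of 10 members, and for 20.2% of all genes. The members' median difference was 1.54, against 0.19 over all genes. Cd44 did not pass without STZ+AOS 1 (1.72, adjusted p = 0.136), and leaving out STZ 1 or STZ 2, quantile normalization, array weights, a mean of at least 5 FPKM or a fit of these 2 groups alone also left 0 members. Without STZ 3 it was 5 members, Havcr1, Lcn2, Cd44, Krt20 and Krt8. Without STZ+AOS 2 it was Cd44 and Timp1, and without STZ+AOS 3 Havcr1 and Timp1. Over the fits with 1 library left out, 11 to 3349 of all genes passed in either direction, against 575 with all 18 libraries. Without the 3 libraries with Cyp11b1 above 100 FPKM, which leaves STZ+AOS with 1 library, the difference was 2.84 for Havcr1 and 0.55 for Cd44.

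**Figure D3:**
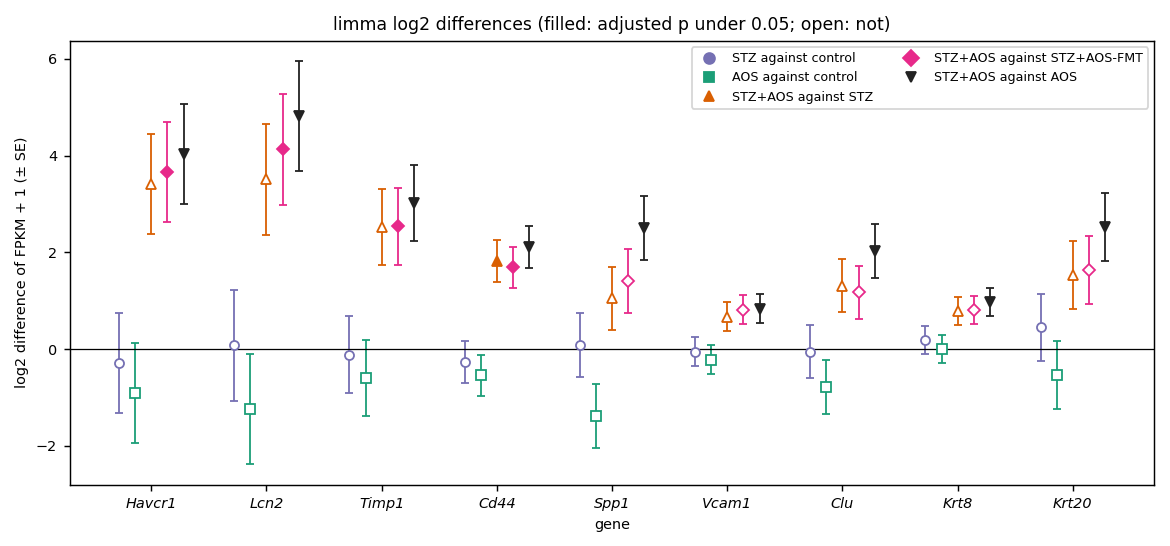
Log2 difference of FPKM + 1 with its SE for the 9 members tested (x axis) in 5 comparisons, filled where the adjusted p is under 0.05 and open where it is not; with STZ+AOS all differences are above 0, and 9, 4 and 1 members pass against AOS, STZ+AOS-FMT and STZ.

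**Figure D4:**
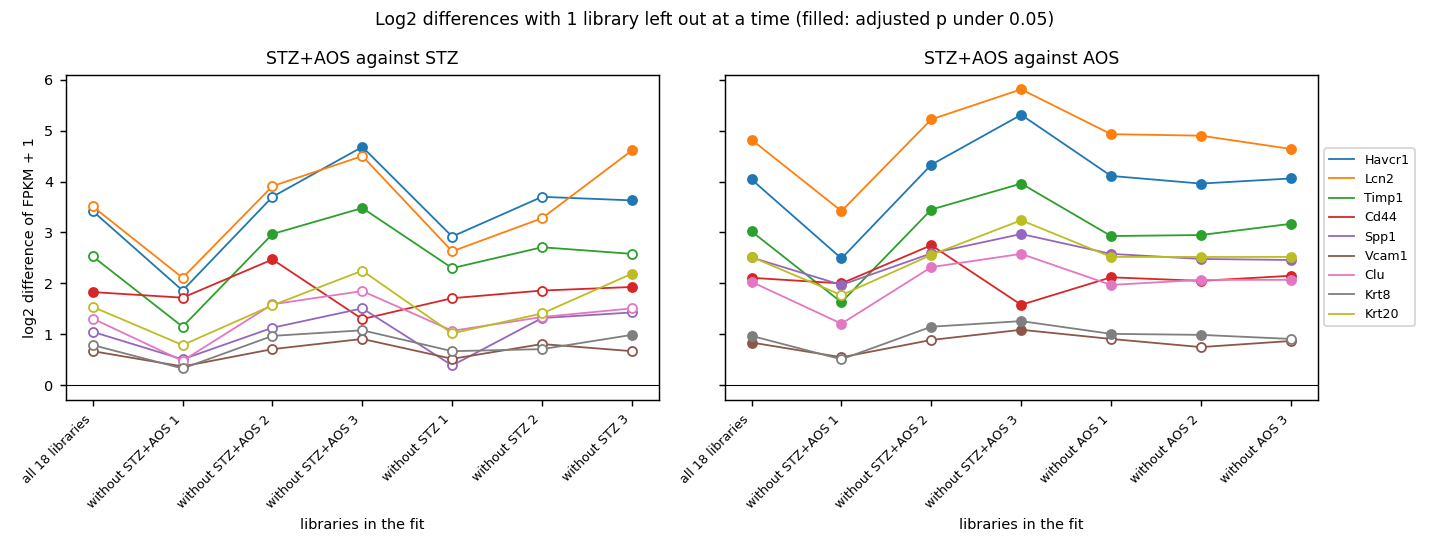
Log2 difference of FPKM + 1 for the 9 members tested, one line each, with all 18 libraries and with 1 library of the compared groups left out at a time, against STZ (left) and AOS (right); points are filled where the adjusted p is under 0.05. Between 0 and 5 members pass against STZ and between 6 and 9 against AOS, and all lines are lower without STZ+AOS 1, that of Cd44 by least.

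No member passed the limma threshold in the 5 other pairwise comparisons that were run; STZ+AOS was not compared with control or with STZ+control-FMT. STZ against control gave 0 of 9 members, where 0% of all genes passed and 1.27% had an unadjusted p under 0.05; the members' differences ran from -0.28 (Havcr1) to 0.45 (Krt20), with 0 members under that unadjusted threshold. AOS against control gave 0 of 9, where 0.0710% of all genes passed; the differences ran from -1.38 ± 0.66 (Spp1, adjusted p = 0.817) to 0.01 (Krt8). Only Cd44 did not overlap there, with every AOS library below every control library, where 10.2% of all genes were. STZ+AOS-FMT against STZ gave 0 of 9 members, where 0.110% of all genes passed, with differences from -0.62 (Lcn2) to 0.15 (Cd44). STZ+control-FMT against STZ gave 0 of 9, where 0.103% did, with differences from -0.38 (Spp1) to 0.31 (Krt20). The transfers against each other gave 0 of 9, where 0% of all genes passed, with Lcn2 at -0.90 and the others closer to 0. The SE of these differences is that given for each member above, so this fit does not exclude changes of that size. It rests on 1 spread shared by all 6 groups. Within groups the spread differed: the CV of Havcr1 was 151.3% in STZ+AOS, 129.8% in control and 59.84% in STZ. It was 16.42% in AOS, 2.823% in STZ+AOS-FMT and 17.27% in STZ+control-FMT. The shared SE can be too wide for groups that spread little and too narrow for comparisons with STZ+AOS.

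The interaction, which asks whether the AOS difference is larger with STZ than without, was above 0 for all 9 members and for 76.4% of all genes, but 0 members passed, where 0% of all genes did. Cd44 was at 2.38 ± 0.61 (limma, adjusted p = 0.0771), Havcr1 at 4.33 ± 1.45 (adjusted p = 0.0883) and Lcn2 at 4.74 ± 1.62 (adjusted p = 0.0899). Without the 3 libraries with Cyp11b1 above 100 FPKM, which leaves STZ+AOS with 1 library, Cd44 was at 0.71, Havcr1 at 2.82 and Lcn2 at 2.96. A limma F test over the 6 groups called 0 of 9 members, where 0.647% of all genes passed, with the smallest adjusted p for Cd44 (0.0736). The 3 comparisons with STZ+AOS share its libraries, so their differences are set side by side and not compared.

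Other genes of injury and repair, from a list of 40 that does not hold the members, moved as follows. Against AOS, 32 of 37 tested rose and 1 fell, where 39.3% of all genes rose. Krt19 and Krt18, partners of Krt8 in simple epithelia, rose by 3.15 ± 0.69 and 2.83 ± 0.62, and C3 (complement) and Gdf15 (a stress-induced cytokine) by 2.98 ± 0.70 and 2.78 ± 0.63. Against STZ+AOS-FMT 10 of 37 rose and 1 fell, where 11.1% of all genes rose: Cp (ceruloplasmin) rose by 2.33 ± 0.55 and Myc by 1.93 ± 0.45, while Mdk (midkine, a growth factor) fell by 1.57. Against STZ 4 of 37 rose, where 3.44% of all genes did: Fga (fibrinogen), Hmox1 (heme oxygenase), Sox4 and Tubb6, by 1.66 ± 0.44, 1.28 ± 0.32, 1.25 ± 0.30 and 1.18 ± 0.22. Of 24 proximal tubule genes, 13 fell against AOS, 11 against STZ+AOS-FMT and 3 against STZ, where 7.18%, 3.99% and 1.10% of all genes fell, and 0 rose in any of them. The 3 were Slc22a6 and Slc13a3, which carry organic anions and dicarboxylates, at -0.86 ± 0.22 and -0.80 ± 0.18, and Fbp1 of gluconeogenesis, at -0.65 ± 0.17.

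Genes related to the members are given by list. Of 15 genes of NF-kB and IL-6 family signalling, which controls Lcn2 and Vcam1, 13 rose against AOS, 8 against STZ+AOS-FMT and 2 (Rela, 0.56 ± 0.14, and Il6st, 0.47 ± 0.12) against STZ, beside the same 39.3%, 11.1% and 3.44% of all genes. Socs3, a feedback inhibitor of that pathway, rose by 1.92 ± 0.43 and 1.80 ± 0.43 in the first and second of these. Of 9 metalloproteinases and inhibitors tested, 3 rose against AOS, no larger a share than among all genes (39.3%), and 2 against STZ+AOS-FMT. Timp2 and Mmp14 rose against both AOS (1.09 ± 0.25 and 1.38 ± 0.34) and STZ+AOS-FMT (1.13 ± 0.25 and 1.19 ± 0.34), and Mmp2 rose and Timp3 fell against AOS. Of 7 osteopontin and hyaluronan-binding genes, 5 rose against AOS (39.3% of all genes), among them the integrin subunits Itga9 and Itgb5, and 1 rose and 1 fell against STZ+AOS-FMT, where 11.1% of all genes rose and 3.99% fell. Of 7 genes listed with Lcn2 and Havcr1, 2 rose and 2 fell against AOS, where 39.3% of all genes rose and 7.18% fell. Axl rose by 1.24 ± 0.31 and Gas6, its ligand, by 0.81 ± 0.26. Lrp2, which takes up lipocalin-2, was at -0.84 ± 0.15 and Timd2 at -0.70 ± 0.25. Against STZ+AOS-FMT Axl rose by 0.98 ± 0.31 and Lrp2 was at -0.70 ± 0.15, which also passed. Against STZ no gene of these last 3 lists passed.

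Markers of some other cell types were also high in STZ+AOS. The sum of 8 macrophage markers, none of them at 0 throughout a group, was 414.6, 248.7 and 157.9 FPKM in STZ+AOS, 82.51 to 125.1 in AOS, 118.8 to 229.1 in control, 106.1 to 202.6 in STZ, 106.4 to 156.4 in STZ+AOS-FMT and 122.2 to 171.1 in STZ+control-FMT. STZ+AOS thus overlapped control, STZ and STZ+control-FMT. Against AOS, 6 of the 8 rose and 1, Csf1r, fell, where 39.3% of all genes rose and 7.18% fell. Against STZ 0 of the macrophage markers passed. Of the T and NK cell and B cell markers, 0 passed in any of the 3 comparisons with STZ+AOS. Of 2 neutrophil markers tested, S100a9 rose against STZ+AOS-FMT (1.65 ± 0.51), where 11.1% of all genes rose, and none passed against AOS or STZ. The neutrophil sum was highest in STZ+AOS 1, at 28.82 FPKM. Of 6 fibroblast markers, 5 rose against AOS and 2 against STZ+AOS-FMT, where 39.3% and 11.1% of all genes rose. Against STZ, Pdgfra alone rose (1.02 ± 0.24), where 3.44% of all genes did. Of 4 collecting duct markers, Aqp2 alone passed, against AOS (1.98 ± 0.56). Cd14, also made by injured tubule, made up 157.91 FPKM of the macrophage sum in STZ+AOS 1. The sum of 5 endothelial markers was 120.8 to 154.1 FPKM in STZ+AOS and 43.08 to 104.9 in the other groups. The 6 adrenal cortex markers summed to 1721, 80.64 and 1386 FPKM in STZ+AOS to 606.7 in control 3 and to 1.21, 28.01 and 34.48 in STZ, against 1.63 or less in AOS and in the FMT groups, where 1 of the 6 markers was at 0 throughout AOS, 1 throughout STZ+AOS-FMT and 3 throughout STZ+control-FMT. The 5 chromaffin cell markers summed to 167, 7.84 and 153.3 FPKM in STZ+AOS and to 15.51 in control 3. All 5 passed as higher in STZ+AOS against STZ. The 4 spermatid markers summed to 26.07 to 37.13 FPKM in control, 18.16 to 74.34 in STZ and 0.18 or less in all other libraries. All 4 passed as lower in AOS against control, and in both FMT groups and STZ+AOS against STZ. The source of this split was not tested, nor was the part of these cell types in the members' values.

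**Figure D5:**
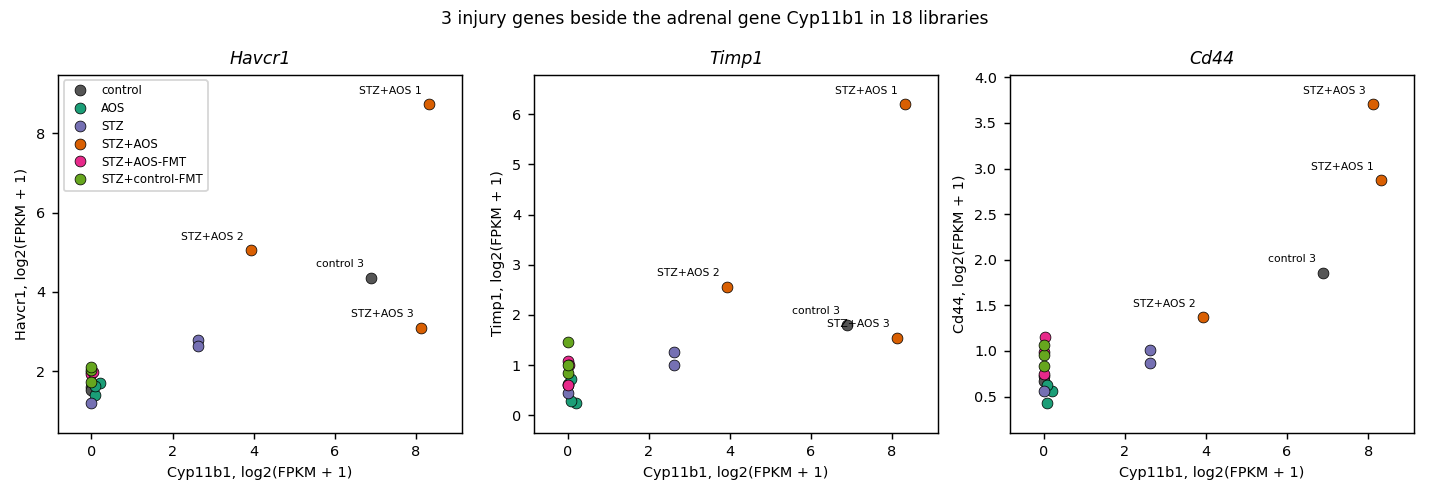
Level of Havcr1, Timp1 and Cd44 (y axes) against that of Cyp11b1 in each library, both as log2(FPKM + 1); Cd44 is high in the 3 libraries with Cyp11b1 above 100 FPKM, and Timp1 is far higher in STZ+AOS 1 than in STZ+AOS 3.

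The genes whose levels over the 18 libraries were most like each member's, outside the set, were as follows. Msn (moesin) was closest to Havcr1, with a Pearson r of 0.977 (0.939 without STZ+AOS 1). Cap1 (0.968) and Aldh1a2 (0.961) followed. Ndrg4 was closest to Lcn2 (0.977), then Cd2ap (0.975) and Myl12a (0.973), and Sdcbp (0.959), Top2b (0.959) and Tmod3 (0.958) were closest to Spp1. Wnt4 was closest to Krt20 (0.971), Pdcd6ip to Timp1 (0.970) and to Sox9 (0.963), Ctsd to Clu (0.967), Wdr1 to Krt8 (0.965) and Bgn to Vcam1 (0.947). Without STZ+AOS 1 the r of Pdcd6ip fell to 0.748 with Sox9 and 0.829 with Timp1. Cd44 was closest to Scarb1, an HDL receptor, at 0.985, and at 0.980 without STZ+AOS 1. Slc23a2 (0.974) and Srxn1 (0.969) came next. Scarb1 stood at 140.93, 15.1 and 383.33 FPKM in STZ+AOS, in the same order as Cd44. Control 3 had 44.05 FPKM, so the 3 highest libraries of Scarb1, like those of Cd44, were the 3 with Cyp11b1 above 100 FPKM. The adrenal cortex markers summed to 1721, 80.64 and 1386 FPKM in STZ+AOS and to 606.7 in control 3. The source of the Scarb1 and Cd44 transcripts was not tested.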

How the data were processed

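Kidney RNA was sequenced in 18 libraries, 3 for each of 6 groups, grouped by the treatment label. The authors deposited 1 table of 19545 entries with FPKM, read numbers normalised by transcript length and library depth; the unit is inferred from the values, whose sum weighted by transcript length varied by 0.941% (CV) between libraries and whose plain sum varied by 5.47%. Reads were aligned with Bowtie 0.12.2 to mm10, per the submitters' processing notes; the counting tool is not given in the sources used here. Positions are from GENCODE M21.

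The 12682 genes that reached 1 FPKM in 3 or more libraries (9 of the 10 members) were tested with limma 3.58.1 in R 4.3.3 (trend and robust) on log2(FPKM + 1), all 18 libraries in 1 fit, with Benjamini-Hochberg adjustment over all genes and a threshold of 0.05. No gene counts were used, so the depth per library is unknown, and the relative value of 1 read cannot show large differences in it. The pipeline was tested on simulated data. Groups of 3 cannot go below p = 0.1 in an exact permutation test. Members and gene lists were chosen with earlier results of these data known. Named were all members, at most 5 genes a list by largest difference among those passing (otherwise the 2 with the smallest p), and the genes most like each member by r. Alternatives were other pseudocounts, filters and scalings, other limma settings, a replicate block, and leaving out each library.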

Additional observations from a re-analysis of the deposited data

How the results depend on the processing

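STZ against control, AOS against control, either FMT group against STZ and the FMT groups against each other called 0 members under every alternative run. For STZ+AOS against STZ (1 member), the count was 0 with a mean of at least 5 FPKM, quantile normalization, array weights, only the groups compared, without control 3 and STZ 1, and with Cyp11b1 as a covariate. For STZ+AOS against STZ+AOS-FMT (4 members) it was 8 with array weights, and 0 with only the groups compared or with the covariate. For STZ+AOS against AOS (9 members) it was 10 of 10 with no filter on low values, which adds Sox9. It was 6 of the 6 tested with a mean of at least 5 FPKM and 8 with median-of-ratios or quantile scaling. With only the groups compared it was 7, and with the covariate 0. Fits without the libraries with Cyp11b1 above 100 FPKM leave STZ+AOS with 1 library, so no count is given for them. The F test over the 6 groups (0 members) called 9 with array weights and 6 without control 3 and STZ 1. Leaving out 1 library at a time gave 0 to 5 members against STZ, 6 to 9 against AOS, 0 to 6 against STZ+AOS-FMT, 0 to 2 for the interaction (2 without STZ 3, 1 without STZ+AOS 2) and 0 to 4 for the F test (4 without control 3). The alternatives that use Cyp11b1, or leave out control 3 and STZ 1 together, were chosen after seeing the data. With Cyp11b1 as a covariate, differences turned negative for Spp1 (-0.60) and Vcam1 (-0.01) against STZ, Vcam1 (-0.05) against AOS, Spp1 (-0.80), Clu (-0.32) and Vcam1 (-0.08) against STZ+AOS-FMT, and Vcam1 (-0.07) in the interaction; the cause was not tested.

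Whether the shared replicate numbers pair the libraries is not settled by these values. Over 45 same-numbered pairs, r of the deviations ran from -0.258 to 0.667, with a median of -0.00377. Between control and STZ it was 0.544, -0.165 and 0.667 for numbers 1, 2 and 3. Of 18 libraries 9 were most like their own number, which was not set against an expected count. With the number as a replicate block, 1 member passed against STZ, 9 against AOS, 3 against STZ+AOS-FMT and 1 (Cd44, adjusted p = 0.0395, limma) in the F test.

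Over all genes, the count called was 575 for STZ+AOS against STZ and 0 to 3349 under the alternatives, 5895 and 0 to 7483 against AOS, 1919 and 0 to 3402 against STZ+AOS-FMT, 0 and 0 to 1105 for STZ against control, 9 and 0 to 41 for AOS against control, 14 and 0 to 178 for STZ+AOS-FMT against STZ, 13 and 0 to 157 for STZ+control-FMT against STZ, 0 and 0 to 3044 for the interaction, and 82 and 15 to 6168 for the F test. The 4 spermatid markers are among the 9 genes called for AOS against control and the 14 and 13 for the FMT groups against STZ. Levels of Sox9, Krt20 and Cd44 near 0 FPKM limit what can be seen for them.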
